A study of Mus musculus with 28 samples.

Results

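Microglia sorted from mouse brains at E14.5 were compared with microglia sorted at E12.5, over all genes that the arrays could measure. The samples were taken by their titles, which place 3 samples at E14.5 and 3 at E12.5, so the comparison held 6 of the 28 samples of the series. The whole series follows yolk-sac macrophages at E10.5 and microglia from E10.5 to adulthood on Illumina Mouse WG-6 version 2 beadchips, and 25 of its 28 arrays were distinct. The question was what microglia gain and lose between these neighbouring stages of embryonic life.

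The E14.5 group held brain microglia of C56BL/6 embryos (the strain as the labels spell it) at E14.5. The E12.5 group held brain microglia of C56BL/6 embryos at E12.5. The signal columns of both groups are headed WT, read here as wild type, and no treatment is given for either. By the study's account the cells of several embryos were pooled for each array regardless of sex, and were sorted as CD45low, CD11b+, F4/80+, CD64+ and Ly6C-. The labels number the samples, but nothing says that the pools came from separate litters, so the tests measure only the spread between pools. That spread was estimated over the 25 distinct arrays of all 8 groups of the series, not over the E14.5 and E12.5 arrays alone.

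Microglia are the resident macrophages of the brain. They descend from yolk-sac progenitors that enter the neural tube while it is still forming, divide there, and take on over time a set of receptors and transcription factors that marks the adult cell. Macrophages that stay at the borders of the brain, in the meninges and around vessels, share this origin and carry scavenger receptors and lectins.

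Promoter sequence is shown for 6 genes that changed, taken from the main groups below. All 6 hold the word marked in them, so they do not show how common it is in a group. Each is the stretch of 250 bases before the gene start, from RefSeq on build GRCm38.p6, written along the gene's own strand. For *Mcm5* and *Orc1*, of the DNA replication genes, and for the cell-cycle gene *Cdca7*, which was added after its values were seen, capitals mark the E2F words TTTCGCGC, TTTGGCGC, TTTCCCGC and TTTGCCGC on either strand. For *Hba-x*, an embryonic globin gene, capitals mark the TATA word TATAAA, and for *Vsig4* and *Spic*, of the macrophage genes, the word GGAAGT, which is bound by the macrophage factor PU.1, again on either strand.
Mcm5 (chr8:75109259-75109508, plus strand): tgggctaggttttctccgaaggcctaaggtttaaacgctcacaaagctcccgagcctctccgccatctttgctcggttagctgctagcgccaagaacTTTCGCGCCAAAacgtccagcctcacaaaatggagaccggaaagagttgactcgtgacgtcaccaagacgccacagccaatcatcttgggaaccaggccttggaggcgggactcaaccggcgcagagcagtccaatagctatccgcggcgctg
Orc1 (chr4:108579204-108579453, plus strand): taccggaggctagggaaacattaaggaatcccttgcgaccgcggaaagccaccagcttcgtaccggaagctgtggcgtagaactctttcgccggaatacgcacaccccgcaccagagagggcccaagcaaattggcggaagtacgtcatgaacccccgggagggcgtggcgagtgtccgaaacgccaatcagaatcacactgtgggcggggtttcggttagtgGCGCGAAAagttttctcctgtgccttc
Cdca7 (chr2:72475969-72476218, plus strand): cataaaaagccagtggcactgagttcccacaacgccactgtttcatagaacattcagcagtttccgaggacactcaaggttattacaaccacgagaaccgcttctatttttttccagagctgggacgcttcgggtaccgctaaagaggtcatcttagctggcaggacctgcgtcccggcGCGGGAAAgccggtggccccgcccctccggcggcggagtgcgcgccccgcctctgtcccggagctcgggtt
Hba-x (chr11:32276350-32276599, plus strand): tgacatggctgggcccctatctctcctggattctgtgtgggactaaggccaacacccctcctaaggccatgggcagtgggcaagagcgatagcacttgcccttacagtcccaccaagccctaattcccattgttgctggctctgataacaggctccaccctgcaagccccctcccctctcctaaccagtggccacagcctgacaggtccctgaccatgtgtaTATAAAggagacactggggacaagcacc
Vsig4 (chrX:96293439-96293688, minus strand): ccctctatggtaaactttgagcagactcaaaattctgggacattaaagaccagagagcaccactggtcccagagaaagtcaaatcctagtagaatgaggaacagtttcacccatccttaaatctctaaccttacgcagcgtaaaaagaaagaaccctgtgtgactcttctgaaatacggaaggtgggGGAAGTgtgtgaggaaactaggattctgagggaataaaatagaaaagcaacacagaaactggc
Spic (chr10:88683024-88683273, minus strand): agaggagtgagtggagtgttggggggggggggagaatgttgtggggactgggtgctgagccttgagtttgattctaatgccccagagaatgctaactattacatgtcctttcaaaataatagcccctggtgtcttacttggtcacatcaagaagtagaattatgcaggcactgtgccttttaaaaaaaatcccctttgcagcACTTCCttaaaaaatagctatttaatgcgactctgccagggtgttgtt

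In *Mcm5* the words TTTCGCGC and TTTGGCGC, the second on the other strand, begin 153 and 149 bases before the start and overlap. *Orc1* held 1 word, 27 bases before the start, and *Cdca7* 1 word, 71 bases before it. The promoters of *Rrm1* and *Chaf1a*, DNA replication genes that also fell, held 0 E2F words and are not shown. An E2F word stood in 517 of 27025 promoters of the table (1.91%), in 301 of the 8644 promoters of tested genes (3.48%), in 8 of the 44 promoters found for the 53 measured DNA replication genes (18.2%) and in 4 of 46 for mitosis (8.70%). It stood in 6 of the 41 promoters found for genes that fell, those of *Mcm5*, *Orc1*, *Cdca7*, *Ppat*, *Ranbp1* and *Atp10a*, and in 0 of the 70 found for genes that rose. TATAAA stood in 13% of all promoters, 7.03% of those of tested genes, 5.71% for genes that rose and 4.88% for genes that fell (2 of 41). GGAAGT stood in 20.0% of all promoters and 23.4% of those of tested genes. Its share was 44.4% for border macrophage genes (8 of 18), 38.5% for homeostatic genes (10 of 26), 34.1% for DNA replication genes (15 of 44), 30.0% for genes that rose and 19.5% for genes that fell. These matches describe the letters of the window and do not show binding.

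Few genes separated the stages. Levels are given as normalized log2 signals, so that a difference of 1 is a doubling of signal, and differences are E14.5 minus E12.5 with the standard error of the fit after ±. Of 10630 genes tested with limma, 147 passed a Benjamini-Hochberg adjusted p under 0.05 (1.38%). A total of 93 were higher at E14.5 (0.875%) and 54 lower (0.508%), and the words rose and fell are kept for these. At an unadjusted p under 0.05 there were 793 higher and 843 lower genes. The median standard error was 0.201. It rests on the spread within all 8 groups of the fit, so for a single gene it can differ from the spread of the arrays compared. The median difference over all genes was -0.01, and 87 of the called genes differed over 2-fold, 62 of them higher and 25 lower. Of all genes 27.7% had E14.5 values that did not overlap the E12.5 values, 13.1% with all values above and 14.6% with all below.

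**Figure D1:**
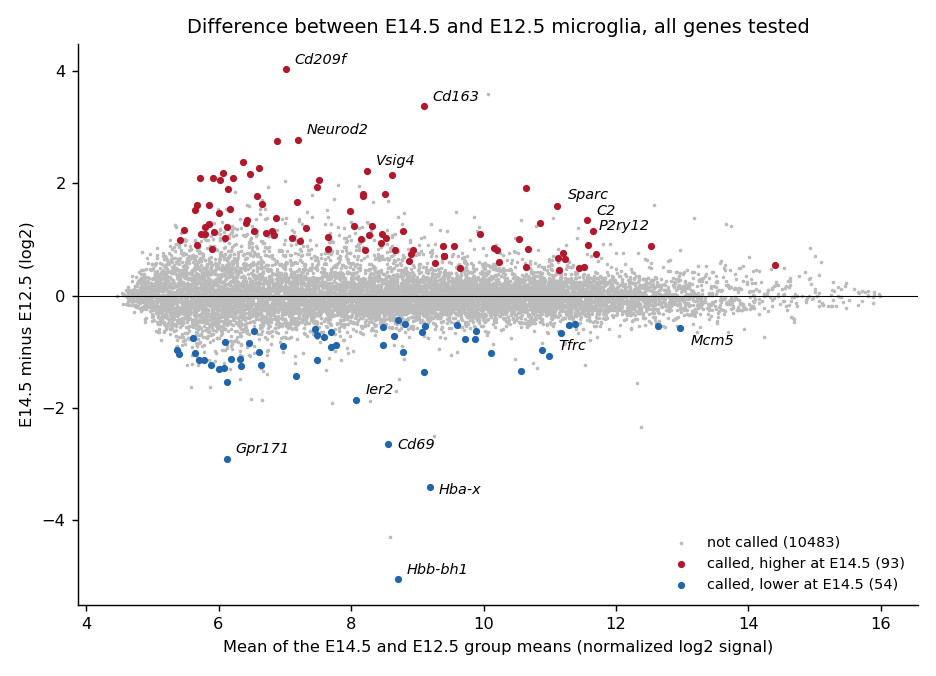
Each of the 10630 genes is plotted by the mean of the E14.5 and E12.5 group means (x, normalized log2 signal) and by its difference E14.5 minus E12.5 (y, log2), with the 93 called higher genes in red and the 54 called lower genes in blue. Among the called genes *Cd209f* (4.03) and *Cd163* (3.38) stand highest, and *Hbb-bh1* (-5.05) and *Hba-x* (-3.40) lowest.

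The neighbouring steps called more genes in the same fit. Between E12.5 and E10.5, 3262 genes (30.7%) were called, and between E16.5 and E14.5, 3495 (32.9%). The group means of E14.5 and E12.5 correlated at r = 0.987 across genes, those of E12.5 and E10.5 at 0.963 and those of E16.5 and E14.5 at 0.966, as a description only, since the steps share arrays.

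The arrays of the 2 groups were not alike in every respect. E14.5 replicates 2 and 3 correlated at r = 0.993 across genes, and E14.5 replicate 1 with them at 0.975 and 0.976, while arrays of E12.5 correlated at 0.974 to 0.983. Arrays of different stages correlated at 0.963 to 0.981, so some pairs across stages were closer than some pairs within a stage. The mean log2 signal of 26 monocyte and neutrophil markers was 7.23, 5.48 and 5.42 on the E14.5 arrays and 7.27, 5.71 and 5.58 on the E12.5 arrays, so replicate 1 of each stage stood high. All 6 arrays carried the sorted population, with each of 9 markers of these cells detected on each array. The list's other gene, *Ly6c1*, stands for the Ly6C that the sort excluded, and was detected on no array. A probe was detected where its p against the negative control beads was under 0.01. Without E14.5 replicate 1 and E12.5 replicate 1, 31 genes were called, 20 higher and 11 lower, and all 147 genes kept their sign. Replicate numbers only name arrays, and nothing says that they pair arrays.

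**Figure D2:**
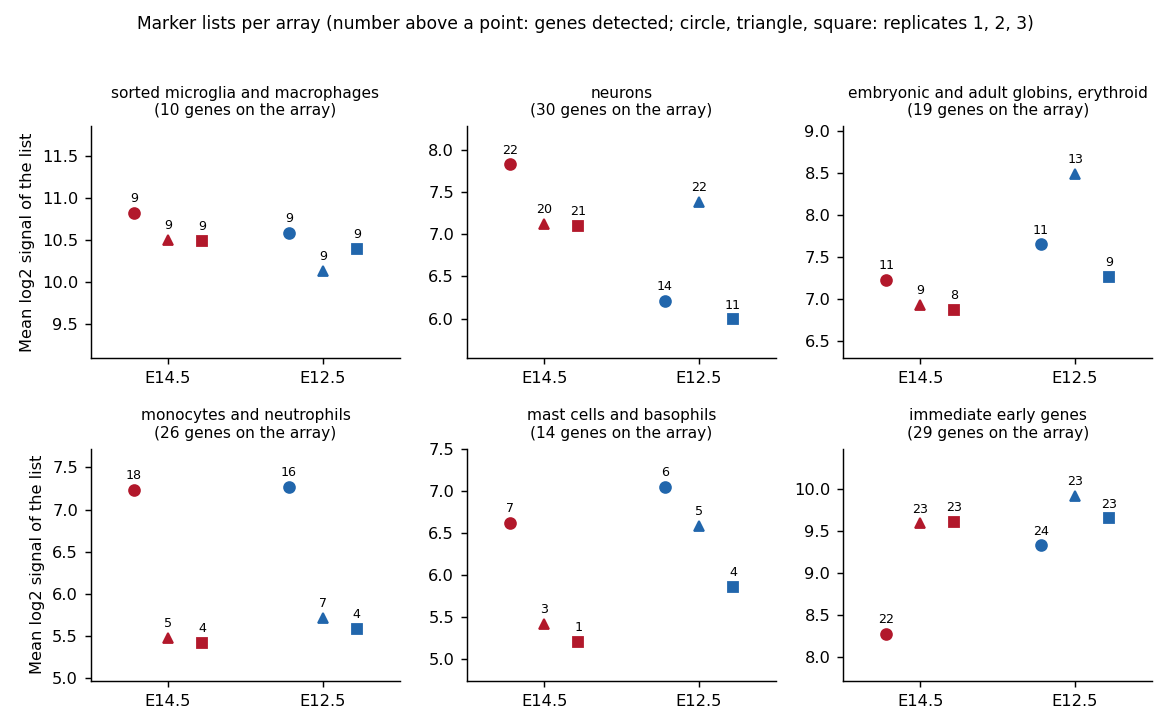
The mean normalized log2 signal of 6 gene lists (y) is plotted for the 3 E14.5 arrays in red and the 3 E12.5 arrays in blue, with the number of detected genes above each point. The monocyte and neutrophil list stands at 7.23 and 7.27 on replicate 1 of the 2 stages and at 5.42 to 5.71 on the others.

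Genes of border macrophages stood higher at E14.5. All 23 measured members had a positive difference, with a median of 0.49, and in 20 of them the E14.5 values lay above all E12.5 values, against 13.1% of all genes. A total of 3 members rose, 0 fell and 20 did not pass, so that 13% were called, against 1.38% of all genes. *Cd163*, the scavenger receptor for haemoglobin bound to haptoglobin, had levels of 10.53, 10.89 and 10.92 at E14.5 and 7.37, 7.14 and 7.71 at E12.5. The groups lay far apart, and it rose by 3.38 ± 0.71 (10.4-fold, adjusted p = 0.0177). *Vsig4*, a macrophage receptor for complement fragments, had 8.90, 9.58 and 9.56 at E14.5 against 6.88, 6.82 and 7.66 at E12.5, and rose by 2.23 ± 0.31 (adjusted p = 0.000454). The lowest E14.5 array was replicate 1, still above every E12.5 array.

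The C-type lectin *Cd209f* was detected on all E14.5 arrays, at 8.84, 9.10 and 9.13, and on none at E12.5, where the probe read 4.96 to 5.04. The difference was therefore at least 7.45-fold, the bound setting the E14.5 mean against the lowest signal of detected probes (adjusted p = 0.045). Its call rested on every array, since it was lost whichever of the 6 was left out (adjusted p = 0.0867 to 0.142). *Cd163* missed the threshold when E14.5 replicate 2 (0.063), E14.5 replicate 3 (0.0714) or E12.5 replicate 1 (0.0744) was left out. *Vsig4* held without any of them, at adjusted p up to 0.00527, and under all other settings tried. With 1 of these 3 arrays left out the list had 1 called member, and with 1 of the others left out 2.

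The members that did not pass included common markers of these cells. *Mrc1*, the mannose receptor, differed by 0.22 (adjusted p = 0.813), *Lyve1*, a hyaluronan receptor, by 0.54 (0.565), *Pf4* by 0.36 (0.763) and the phosphatidylserine receptor *Timd4* by 0.16 (0.915). The soluble lectin *Fcna* was at 13.44, 13.40 and 13.33 at E14.5 and 12.03, 11.39 and 11.90 at E12.5, a difference of 1.62 ± 0.42 that missed the threshold (adjusted p = 0.06). The list was therefore led by 3 genes, of which *Vsig4* alone held without any one array. In sorted bulk samples, more cells of a type and more RNA per cell cannot be told apart.

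Genes of iron and haem handling were called in both directions, but the calls were few and depended on single arrays. Of 25 measured genes 2 rose, 1 fell and 22 did not pass, with a median of 0.10. Thus 12% were called, against 1.38% of all genes. With single arrays left out, 0 or 1 members were called higher and 0 or 1 lower. Without replicate 1 of both stages, 0 were called higher and 0 lower. Besides *Cd163*, *Spic* rose, the transcription factor of red-pulp macrophages that recycle iron in the spleen. It had 8.0, 8.08 and 7.96 at E14.5 and 6.99, 5.54 and 6.51 at E12.5, with the E12.5 values widely spread, and a difference of 1.67 ± 0.41 (adjusted p = 0.0436). *Spic* was detected on 2 of 3 E12.5 arrays. The call of *Spic* was lost whichever array other than E12.5 replicate 1 was left out (adjusted p = 0.0853 to 0.15).

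*Tfrc*, the transferrin receptor that takes up iron and is high in dividing cells, fell. Its levels were 9.91, 10.71 and 10.77 at E14.5 and 11.74, 11.59 and 11.27 at E12.5, and the difference was -1.07 ± 0.20 (adjusted p = 0.00945). All E14.5 values lay below those of E12.5, with E14.5 replicate 1 lowest, and a second probe gave -1.0. Leaving out E12.5 replicate 1 raised the adjusted p of *Tfrc* to 0.0705. The iron exporter *Slc40a1* (0.85, adjusted p = 0.0975) and the haem oxygenase *Hmox1* (0.11, 0.959) did not pass, and the ferritin chains *Fth1* (-0.03) and *Ftl1* (0.01) lay near 0.

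Genes of the homeostatic microglial programme stood higher at E14.5. Of 34 measured members 5 rose (14.7%, against 0.875% of all genes), 0 fell and 29 did not pass, with a median of 0.36. In 22 all E14.5 values lay above those of E12.5, against 13.1% of all genes. *Ltc4s*, the enzyme that makes leukotriene C4, had 11.57, 11.44 and 11.48 at E14.5 and 10.20, 10.19 and 10.23 at E12.5. Replicates hardly differed, and it rose by 1.29 ± 0.18 (adjusted p = 0.000508). *Lag3*, an inhibitory receptor that adult microglia carry, had 9.33, 9.02 and 8.90 against 7.38, 7.25 and 7.2, and rose by 1.81 ± 0.26 (3.5-fold, adjusted p = 0.000738). The groups of *Lag3* did not overlap, and both calls held under every other setting tried.

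*Sparc*, a secreted matrix protein abundant in adult microglia, had 12.42, 11.67 and 11.63 at E14.5 and 10.22, 10.38 and 10.35 at E12.5, and rose by 1.59 ± 0.26 (adjusted p = 0.00301). E14.5 replicate 1 was the highest array, as it was for *Sall1*, the transcription factor that sets microglial identity. *Sall1* had 9.35, 8.65 and 8.81 at E14.5 and 7.63, 7.71 and 7.77 at E12.5 (1.24 ± 0.24, adjusted p = 0.00956), and it missed the threshold when replicate 1 of E14.5 (0.0584) or of E12.5 (0.0593) was left out. *P2ry12*, the ADP receptor by which microglia sense injury, had 12.03, 12.13 and 11.92 against 10.88, 11.04 and 11.44 and rose by 0.91 ± 0.17 (adjusted p = 0.00778). Neither gene had overlapping groups, but *P2ry12* missed the threshold when E12.5 replicate 1 was left out (0.0649). A second *P2ry12* probe gave 0.48, while the other probes of *Sall1* and *Sparc* gave 1.6 and 1.58 to 1.81. The list had 3 called members without that array, 4 or 5 without any other, and 2 without replicate 1 of both stages. E14.5 replicate 1 was also the E14.5 array highest in monocyte and neutrophil transcripts and in the neuronal ones given below, and their part in these rises was not tested.

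Other genes of this programme did not pass. *Tmem119* differed by 0.66 ± 0.30 (adjusted p = 0.296), with 10.64 to 11.28 at E14.5 and 10.02 to 10.46 at E12.5, which did not overlap. The lectin *Siglech* differed by 0.62 (adjusted p = 0.312) and the engulfment receptor *Mertk* by 0.33 (0.565). The fractalkine receptor *Cx3cr1* (0.07, adjusted p = 0.96), the growth factor receptor *Csf1r* (0.27, 0.345) and *Trem2* (0.29, 0.491) did not pass either, at mean levels of 14.04, 14.05 and 12.82 at E14.5 and 13.97, 13.78 and 12.53 at E12.5, in that order. Among the sorting genes the differences were 0.16 for *Ptprc*, 0.99 for *Itgam*, 0.29 for *Adgre1* and 0.08 for *Fcgr1*, none of which passed.

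Purinergic signalling, by which microglia read extracellular nucleotides, had a median of 0.35 over 13 measured genes, of which 2 rose, 0 fell and 11 did not pass. Thus 15.4% were called, against 1.38% of all genes. Besides *P2ry12*, the adenosine receptor *Adora3* rose, with 8.94, 8.51 and 8.53 at E14.5 and 7.75, 7.13 and 7.37 at E12.5 (1.24 ± 0.18, adjusted p = 0.000602). Its groups did not overlap and its call held without any one array. *P2ry13* (0.64, adjusted p = 0.0674) and the ATP-gated channel *P2rx7* (0.87, 0.269) did not pass.

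**Figure D3:**
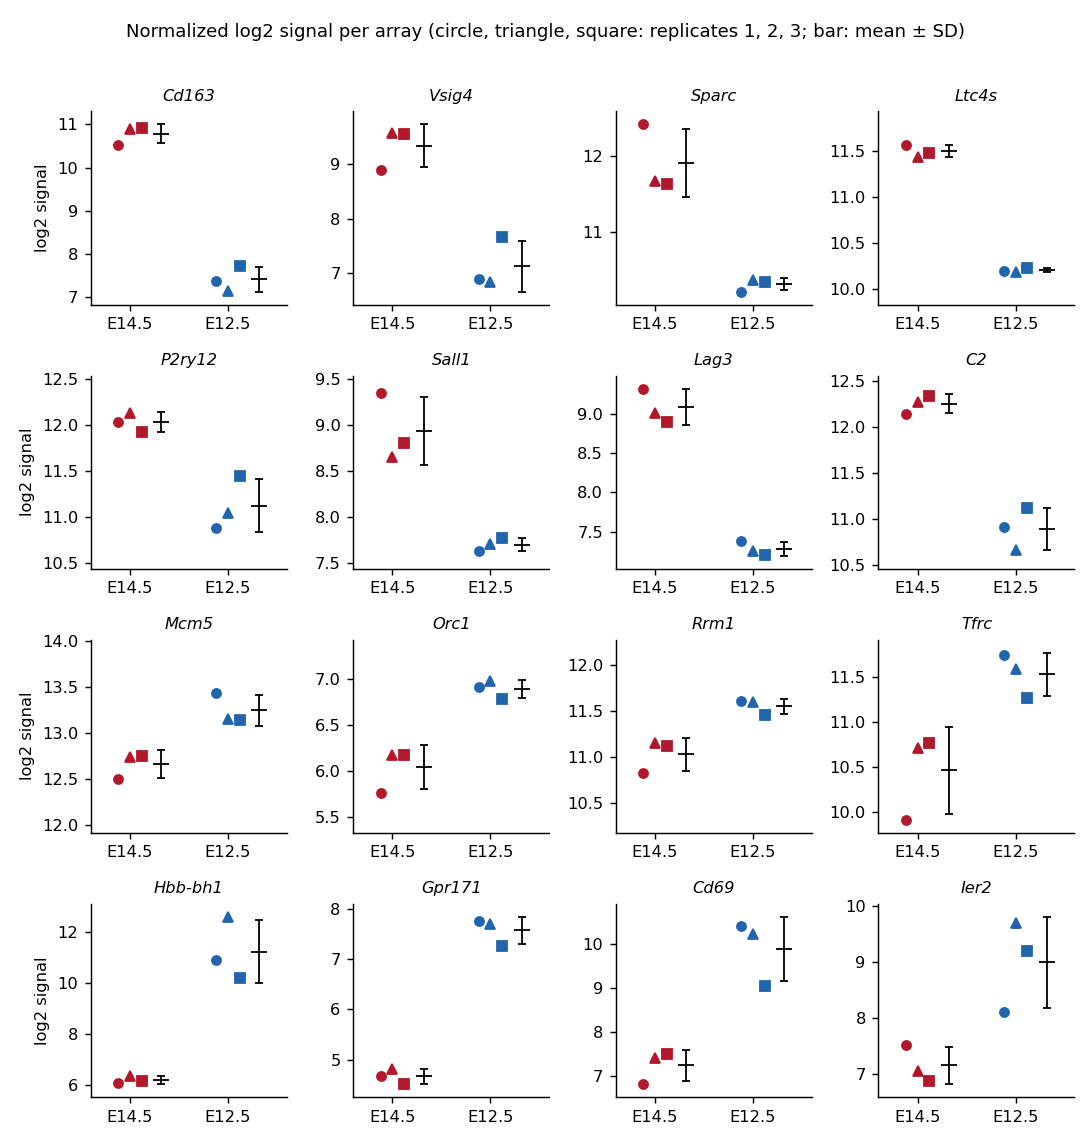
The normalized log2 signal (y) of 16 called genes is plotted for the 3 E14.5 arrays in red and the 3 E12.5 arrays in blue, with the mean and SD of each group beside them. The groups overlap for none of these genes. For *Ltc4s* the E14.5 arrays lie at 11.44 to 11.57 and the E12.5 arrays at 10.19 to 10.23.

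Of 16 complement genes 2 rose, *Vsig4* and *C2*, 0 fell and 14 did not pass, with 13 positive differences and a median of 0.20. *C2*, a protease of the classical and lectin pathways, had 12.14, 12.27 and 12.33 at E14.5 and 10.91, 10.66 and 11.11 at E12.5 (1.35 ± 0.30, adjusted p = 0.028). The groups lay apart, but the call was lost whichever of the 6 arrays was left out (adjusted p = 0.0505 to 0.102). The chains *C1qa* (0.35), *C1qb* (0.16) and *C1qc* (0.25) did not pass.

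Among 24 Toll-like receptor genes *Tlr6*, which pairs with Tlr2 on bacterial lipopeptides, rose by 0.49 ± 0.12 (adjusted p = 0.0429), 0 fell and 23 did not pass. So 4.17% were called, against 1.38% of all genes, and 19 differences were positive, with a median of 0.15. In 8 of the 24 all E14.5 values lay above those of E12.5, against 13.1% of all genes. *Tlr6* had 9.94, 9.75 and 9.98 at E14.5 and 9.45, 9.27 and 9.48 at E12.5, and its call was lost whichever of the 6 arrays was left out (adjusted p = 0.0566 to 0.151). *Ly86*, a partner of the receptor Cd180, differed by 0.42 ± 0.11 (adjusted p = 0.0578). Of 25 Fc receptor, Trem and Siglec genes 0 rose and 1 fell (4%, against 0.508% of all genes), *Trem3* (adjusted p = 0.0175). *Trem3* was detected on no E14.5 array, at 5.25, 4.78 and 4.63, and on 2 of 3 at E12.5, at 6.22, 6.05 and 5.50, so that no fold is given, and its call was lost without E14.5 replicate 2 (0.0744), E14.5 replicate 3 (0.0958) or E12.5 replicate 1 (0.119).

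*Tnfrsf17*, a receptor of the tumour necrosis factor superfamily best known from plasma cells, had 8.08, 8.55 and 8.74 at E14.5 and 6.58, 6.24 and 6.73 at E12.5 (1.94 ± 0.26, adjusted p = 0.000454). *Tnfsf18*, a ligand of that superfamily, had 6.41, 7.82 and 7.57 at E14.5, detected on all 3 arrays, and was not detected at E12.5, which gave a difference of at least 2.20-fold (adjusted p = 0.00163). Both calls held without any one array. Of 24 cytokine and activation genes *Tnfrsf17* and *Lag3* rose and 0 fell, so that 8.33% were called, against 1.38% of all genes. The cytokines *Il1b* (-0.84, adjusted p = 0.814) and *Tnf* (-0.49, 0.87) did not pass.

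Among guidance genes, 19 measured, the semaphorin *Sema4a* rose (5.26%, against 0.875% of all genes) and 18 did not pass. It had 12.32, 12.14 and 12.22 at E14.5 and 11.09, 11.03 and 11.12 at E12.5 (1.15 ± 0.22, adjusted p = 0.00956), groups that lay well apart, and its call held without any one array. The plexin *Plxna2*, a semaphorin receptor, differed by 0.67 ± 0.19 and did not pass (adjusted p = 0.0893). Of 34 integrin and matrix genes 2 rose (5.88%, against 0.875% of all genes), *Sparc* and the gelatinase *Mmp9*. *Mmp9* had 8.75, 8.5 and 8.37 at E14.5 and 6.51, 6.61 and 6.33 at E12.5 (2.06 ± 0.43, adjusted p = 0.0179), and its call was lost whichever array other than E12.5 replicate 2 was left out (adjusted p = 0.0551 to 0.073).

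Of 48 lysosomal genes 44 had a positive difference, with a median of 0.20, and 22 had all E14.5 values above those of E12.5, against 13.1% of all genes. Only 1 of the 48 passed, against 1.38% of all genes, the mannosidase *Man2b1*, with 14.75, 14.63 and 14.64 at E14.5 and 14.28, 13.96 and 14.16 at E12.5 (0.54 ± 0.13, adjusted p = 0.0341). That call was lost whichever of the 6 arrays was left out (adjusted p = 0.0608 to 0.119). The cathepsin *Ctsf* (0.73, adjusted p = 0.0536) and the progranulin gene *Grn* (0.47, 0.125) did not pass.

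**Figure D4:**
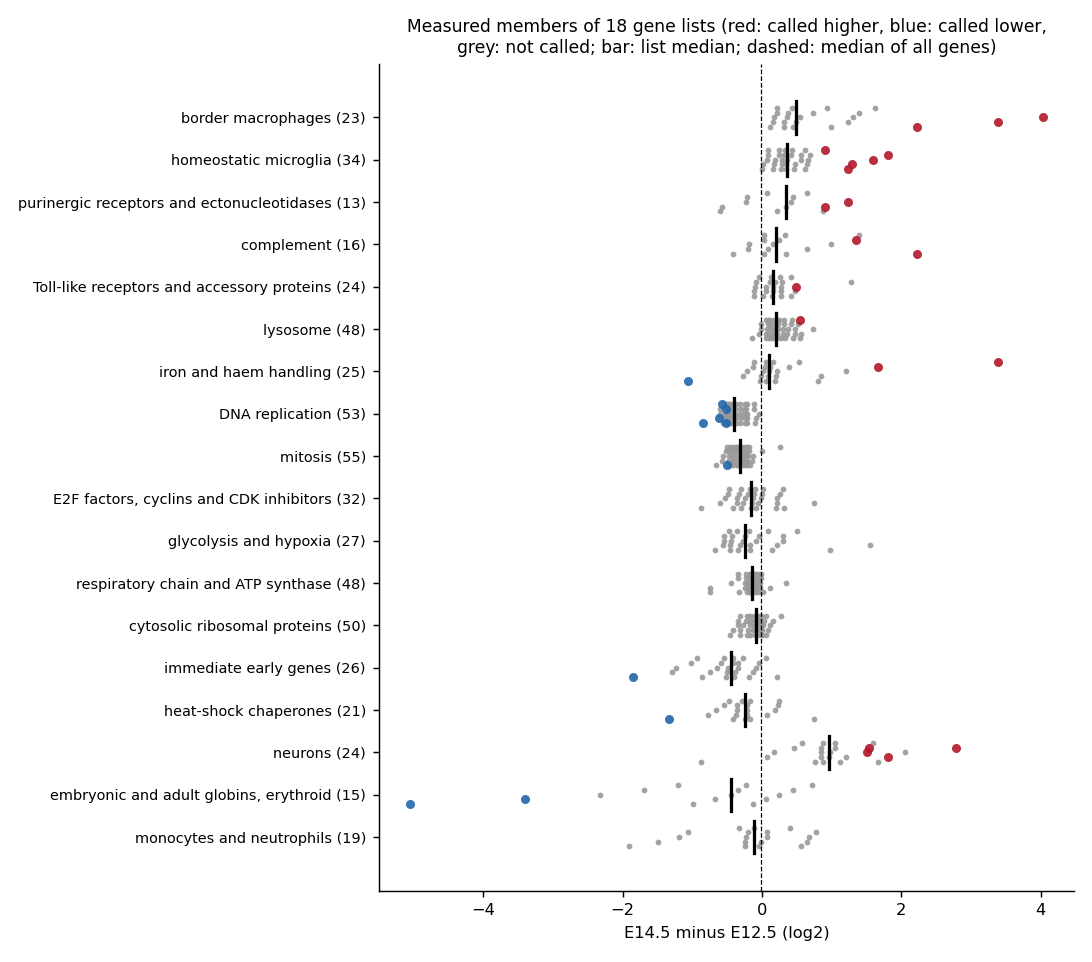
The difference E14.5 minus E12.5 (x, log2) is plotted for every measured member of 18 gene lists, called higher members in red, called lower in blue and others in grey, with the median of each list as a bar and that of all genes (-0.01) as a dashed line. Border macrophage and homeostatic genes lie right of the line (medians 0.49 and 0.36), and DNA replication and mitosis genes left of it (-0.40 and -0.32).

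Cell-cycle genes stood lower at E14.5. Of 53 measured DNA replication genes none had a positive difference, the median was -0.40, and in 41 all E14.5 values lay below those of E12.5, against 14.6% of all genes. A total of 5 fell, 0 rose and 48 did not pass, so that 9.43% were called, against 1.38% of all genes. *Mcm5*, a subunit of the replicative helicase, had 12.74 and 12.76 on E14.5 replicates 2 and 3, less on E14.5 replicate 1, and 13.44, 13.16 and 13.15 at E12.5 (-0.58 ± 0.12, adjusted p = 0.0177). *Orc1*, the largest subunit of the origin recognition complex, had 5.76, 6.17 and 6.17 against 6.91, 6.97 and 6.78 (-0.85 ± 0.17, adjusted p = 0.0105) and was detected on 1 of 3 E14.5 arrays. For both genes E14.5 replicate 1 was the lowest array.

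*Rrm1*, the large subunit of ribonucleotide reductase, had 10.82, 11.15 and 11.12 at E14.5 and 11.61, 11.60 and 11.46 at E12.5 (-0.52 ± 0.12, adjusted p = 0.0276). The histone chaperone *Chaf1a* (-0.62 ± 0.14, adjusted p = 0.0311) and *Gins1* of the replicative helicase (-0.52 ± 0.12, 0.0337) fell by similar amounts. The other helicase subunits *Mcm2* (-0.49, adjusted p = 0.0619), *Mcm4* (-0.49, 0.202), *Mcm6* (-0.44, 0.263), *Mcm7* (-0.40, 0.295) and *Mcm3* (-0.32, 0.531) lay lower without passing. The sliding clamp *Pcna* differed by -0.11 (adjusted p = 0.904).

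Without E14.5 replicate 1 or without E12.5 replicate 1, 0 of the 53 members were called, and 2 to 4 without any other array, while the median stayed at -0.45 to -0.29 with each array left out. The adjusted p of *Mcm5* was 0.0845 without E14.5 replicate 1 and 0.126 without E12.5 replicate 1, and that of *Orc1* 0.0642 and 0.0593. *Rrm1* also missed the threshold without E14.5 replicate 1 (0.138), E14.5 replicate 3 (0.0625), E12.5 replicate 1 (0.126) or E12.5 replicate 2 (0.0696), *Chaf1a* whichever array other than E12.5 replicate 2 was left out (0.0509 to 0.17) and *Gins1* whichever other than E14.5 replicate 2 (0.071 to 0.169). The mean log2 signal of the list was 9.36, 9.66 and 9.64 on the E14.5 arrays and 9.96, 9.93 and 9.90 on the E12.5 arrays. It was lowest on E14.5 replicate 1, which also carried many monocyte and neutrophil transcripts, and the part of those in the result was not tested. Without both replicates 1 the median was -0.27 and 0 members were called.

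Of 55 mitotic genes 1 had a positive difference, *Ccna2* (0.26, adjusted p = 0.76), the median was -0.32, and 33 had all E14.5 values below those of E12.5, against 14.6% of all genes. *Birc5*, survivin of the chromosomal passenger complex, fell, with 11.01, 11.12 and 11.25 at E14.5 and 11.73, 11.53 and 11.63 at E12.5 (-0.51 ± 0.12, adjusted p = 0.0409), and 54 did not pass, so that 1.82% were called, against 1.38% of all genes. The call of *Birc5* was lost whichever array other than E12.5 replicate 2 was left out (adjusted p = 0.065 to 0.171). Of 32 E2F factors, cyclins and inhibitors 0 were called with limma, 6 being lower and 0 higher at an unadjusted p under 0.05, and the median was -0.16. The G1/S cyclin *Ccne1* differed by -0.88 ± 0.29 (adjusted p = 0.135), and the D-type cyclins by 0.30 for *Ccnd1*, 0.75 for *Ccnd2* and -0.36 for *Ccnd3*, none of which passed.

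Outside the lists, and chosen after their values were seen, the kinetochore gene *Cenpw* (-0.77 ± 0.14, adjusted p = 0.00586) and the uridine-cytidine kinase *Uck2* (-0.97 ± 0.16, 0.00363) fell and held without any one array. The dCMP deaminase *Dctd* (-0.77, adjusted p = 0.0208) and *Ppat*, of purine synthesis (-1.01, 0.0317), fell as well, and so did *Cdca7*, with 10.95, 10.79 and 10.77 at E14.5 and 11.66, 11.51 and 11.35 at E12.5 (-0.67 ± 0.16, 0.0368), whose call was lost whichever of the 6 arrays was left out (0.0549 to 0.17). *Dctd* missed the threshold without E14.5 replicate 1 (0.0753), E14.5 replicate 3 (0.0749), E12.5 replicate 1 (0.0744) or E12.5 replicate 2 (0.0654), and *Ppat* whichever array other than E14.5 replicate 2 was left out (0.0641 to 0.154). The mitochondrial thymidine kinase *Tk2*, which serves cells outside S phase, rose, with 11.61, 11.58 and 11.59 at E14.5 and 10.80, 10.85 and 10.81 at E12.5 (0.77 ± 0.13, adjusted p = 0.00367).

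The largest falls were embryonic globins, which primitive red cells of the yolk sac make. *Hbb-bh1* had 6.05, 6.34 and 6.16 at E14.5 and 10.89, 12.61 and 10.21 at E12.5, and fell by 5.05 ± 0.79 (33.2-fold, adjusted p = 0.00163). All E12.5 arrays stood high, replicate 2 most, and the call held without any one array. At E14.5 *Hbb-bh1* was detected on 2 of 3 arrays, so the size of its fall is uncertain. *Hba-x* had 8.29, 7.18 and 6.97 at E14.5 and 11.01, 11.88 and 9.78 at E12.5 (-3.40 ± 0.84, adjusted p = 0.0482), and its call was lost whichever array other than E12.5 replicate 3 was left out (adjusted p = 0.0638 to 0.159). *Hbb-y* had 11.65, 11.12 and 10.87 against 13.29, 14.70 and 12.66, which did not overlap, and did not pass (-2.33, adjusted p = 0.158).

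The adult globin *Hba-a1* had 14.39, 13.70 and 13.74 at E14.5 and 13.02, 15.24 and 12.23 at E12.5, which overlapped (0.45, adjusted p = 0.909), and *Hbb-b2* was detected on 1 of 3 arrays at either stage, too few to compare. Of 15 measured erythroid genes 2 fell (13.3%, against 0.508% of all genes), 0 rose and 13 did not pass, with a median of -0.45. With single arrays left out 1 to 3 fell, 1 without E14.5 replicate 2 or 3 or E12.5 replicate 1 or 2 and 3 without E12.5 replicate 3. The summed linear signal of 19 erythroid markers on the array was 18000 to 27400 at E14.5 and 15300 to 80400 at E12.5, and 6 of them were detected on none of the 6 arrays. The erythroid factor *Klf1* and *Hemgn* were among those not detected.

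*Gpr171*, a G protein-coupled receptor of leukocytes, had the smallest adjusted p of the comparison. It was detected on no E14.5 array, where the probe read 4.68, 4.82 and 4.52, and had 7.76, 7.69 and 7.26 at E12.5. The fall was thus at least 2.74-fold, with an adjusted p of 4.19e-08. *Gpr171* stood in the list of lymphocyte markers, of whose 8 measured members it alone was called, 0 had a positive difference and the median was -0.30. The summed linear signal of the 18 lymphocyte markers on the array was 1840 to 2260 at E14.5 and 2140 to 2480 at E12.5, and 12 of them, among them the T cell receptor subunits *Cd3e*, *Cd3d* and *Cd3g*, were detected on none of the 6 arrays. The prostaglandin receptor *Ptger3* was likewise not detected at E14.5 (5.32, 5.47 and 5.54) and had 6.70, 6.51 and 6.96 at E12.5, lower by at least 1.52-fold at E14.5 (0.00171). Both calls held without any one array, as did that of *Tpm2*, a tropomyosin of the actin cytoskeleton (-1.36 ± 0.17, adjusted p = 0.000226), with 8.35, 8.52 and 8.38 at E14.5 and 9.68, 9.84 and 9.80 at E12.5.

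*Cd69*, an early activation antigen of leukocytes, had 6.82, 7.4 and 7.49 at E14.5 and 10.39, 10.22 and 9.04 at E12.5 (-2.64 ± 0.65, adjusted p = 0.0466). Its call was lost whichever array other than E12.5 replicate 3 was left out (adjusted p = 0.101 to 0.181). *Ier2* was the 1 of 26 immediate early genes that fell (3.85%, against 0.508% of all genes). It differed by -1.85 ± 0.41 (adjusted p = 0.0251), with 7.52, 7.06 and 6.88 at E14.5 and 8.11, 9.69 and 9.20 at E12.5. It lost its call without E14.5 replicate 2 (0.0877), E14.5 replicate 3 (0.104), E12.5 replicate 2 (0.0939) or E12.5 replicate 3 (0.0861). The list as a whole read 8.28 on E14.5 replicate 1, against 9.59 and 9.61 on the other E14.5 arrays and 9.33 to 9.92 at E12.5, so it was low on 1 array rather than on a stage. *Fos* (-0.74, adjusted p = 0.366) and *Jun* (-0.49, 0.312) did not pass.

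*Lin28b*, the RNA-binding protein of fetal blood stem cells that blocks let-7 maturation, fell by 0.90 ± 0.18 (adjusted p = 0.0102), with 6.29, 6.61 and 6.66 at E14.5 and 7.33, 7.31 and 7.63 at E12.5. Its groups did not overlap, and it missed the threshold when E14.5 replicate 1 (0.0584) or E12.5 replicate 3 (0.0601) was left out. The RNA-binding genes *Igf2bp1* (-1.05, adjusted p = 0.102) and *Igf2bp3* (-0.31, 0.648) did not pass, and 1 of 17 genes of that list was called (5.88%, against 1.38% of all genes). The collagen chaperone *Serpinh1* (-1.34 ± 0.33, adjusted p = 0.0497) was the 1 of 21 heat-shock genes called (4.76%, against 1.38% of all genes). The call of *Serpinh1* was lost whichever of the 6 arrays was left out (adjusted p = 0.0546 to 0.167). *Cpa3*, a mast cell protease, was the gene with the second largest negative difference (-4.30 ± 1.18) and missed the threshold (adjusted p = 0.0718), with 8.85, 5.50 and 4.97 at E14.5 and 11.83, 11.08 and 9.32 at E12.5. Of 7 measured mast cell and basophil genes 0 were called with limma, 2 being lower and 0 higher at an unadjusted p under 0.05, and the median was -1.09.

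Transcripts known from neurons were higher at E14.5. Of 24 measured neuronal markers 4 rose, 0 fell and 20 did not pass, so that 16.7% were called, against 1.38% of all genes. A total of 23 had a positive difference, and the median was 0.96. In 6 of the 24 all E14.5 values lay above those of E12.5, against 13.1% of all genes. The mean log2 signal of the 30 markers on the array was 7.83, 7.12 and 7.10 at E14.5 and 6.21, 7.39 and 5.99 at E12.5. E12.5 replicate 2 thus reached the E14.5 range, and 7 of the 30 were detected on no array. Without E12.5 replicate 2, 11 members were called, without E12.5 replicate 1, 0, without E14.5 replicate 1 or E12.5 replicate 3, 1, without E14.5 replicate 2, 3, and without E14.5 replicate 3, 2. The choroid plexus transcript *Ttr* had the largest positive difference that did not pass (3.59 ± 1.69, adjusted p = 0.315), with 11.95, 12.11 and 11.51 at E14.5 and 6.23, 10.45 and 8.13 at E12.5.

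*Neurod2*, a transcription factor of cortical projection neurons, had 9.29, 8.30 and 8.19 at E14.5 and 4.91, 6.97 and 5.56 at E12.5 (2.78 ± 0.51, adjusted p = 0.00674), and missed the threshold when E12.5 replicate 1 was left out (0.0593). A second *Neurod2* probe gave 0.72. *Tbr1* and *Fezf2*, of deep-layer cortical neurons, rose by 1.54 ± 0.36 (adjusted p = 0.0349) and 1.51 ± 0.35 (0.0311), and the tau gene *Mapt* by 1.81 ± 0.41 (0.0288). Each of these was highest on E14.5 replicate 1, and among the E12.5 arrays on replicate 2. *Neurod2* and *Tbr1* were each detected on 1 of 3 E12.5 arrays, so the sizes of their differences are uncertain. *Tbr1* lost its call without E14.5 replicate 1 (adjusted p = 0.171), E14.5 replicate 3 (0.0506), E12.5 replicate 1 (0.165) or E12.5 replicate 3 (0.143), and *Fezf2* without E14.5 replicate 1 (0.152), E12.5 replicate 1 (0.163) or E12.5 replicate 3 (0.108). *Mapt* lost it whichever array other than E12.5 replicate 2 was left out (0.0566 to 0.134).

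Of 16 glial and progenitor markers *Olig1*, of the oligodendrocyte lineage, rose (6.25%, against 0.875% of all genes). It had 7.55, 6.61 and 7.01 at E14.5 and no detection at E12.5 (at least 1.90-fold, adjusted p = 0.0253). Its call was lost without E14.5 replicate 1 (0.106), E14.5 replicate 3 (0.0805), E12.5 replicate 1 (0.122) or E12.5 replicate 3 (0.0826). *Mpped1* (2.76 ± 0.38, adjusted p = 0.000454), the phosphatase subunit *Ppp2r2b* (at least 2.69-fold, 6.68e-05) and the neuronal zinc finger gene *Myt1l* (2.16 ± 0.39, 0.00586), which no list held, showed the same order of arrays, highest on E14.5 replicate 1 and, at E12.5, on replicate 2. Their calls held without any one array. *Sncaip*, which binds alpha-synuclein, had 7.83, 7.31 and 7.53 against 5.92, 6.41 and 6.16 (1.39 ± 0.16, adjusted p = 0.000108), but a second *Sncaip* probe gave 0.20, and the other *Myt1l* probes gave 0.23 to 1.18. *Mpped1*, *Myt1l* and *Sncaip* were each detected on 1 of 3 E12.5 arrays, so the sizes of their differences are uncertain. The part of neuronal transcripts in the other rises was not tested.

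Further large rises lay outside the lists. The sulfotransferase *Sult1a1* had 9.61, 9.68 and 9.78 at E14.5 and 7.69, 7.16 and 7.76 at E12.5 (2.15 ± 0.45, adjusted p = 0.0175), groups that lay well apart, and missed the threshold when E14.5 replicate 2 (0.0566), E14.5 replicate 3 (0.071), E12.5 replicate 1 (0.0597) or E12.5 replicate 2 (0.0553) was left out. The somatostatin receptor *Sstr2* had 8.49, 7.14 and 7.64 against 4.80, 6.70 and 4.91 (2.28 ± 0.49, adjusted p = 0.0208), again highest on E14.5 replicate 1 and, at E12.5, on replicate 2. *Sstr2* was detected on 1 of 3 E12.5 arrays, so the size of its difference is uncertain. Its adjusted p was 0.0647 to 0.131 when E14.5 replicate 1, E14.5 replicate 3, E12.5 replicate 1 or E12.5 replicate 3 was left out. *Mmd2* was at least 2.04-fold higher at E14.5 (adjusted p = 0.0452) and missed the threshold whichever of the 6 arrays was left out (0.054 to 0.183).

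Further falls lay near the detection limit at E14.5. *Iqcf5*, with 5.71, 5.23 and 5.12 at E14.5 and 6.71, 6.84 and 7.11 at E12.5, was detected on no E14.5 array and was lower by at least 1.71-fold (adjusted p = 0.00253), which held without any one array. The adhesion molecule *Nectin3* had 6.57, 6.63 and 6.16 against 7.69, 8.18 and 7.77 (-1.43 ± 0.27, adjusted p = 0.00824), with no overlap. The autophagy gene *Atg9b* (-1.25 ± 0.23, adjusted p = 0.0082) lost its call, as did *Nectin3*, without E14.5 replicate 3, at 0.0625 for *Atg9b* and 0.0587 for *Nectin3*. *Dnph1*, a nucleotide hydrolase not detected at E14.5, was lower by at least 1.45-fold (adjusted p = 0.014), and missed the threshold without E14.5 replicate 3 (0.0942) or E12.5 replicate 1 (0.108).

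Antigen presentation and signalling lists held no call with limma. All 11 MHC class II genes had a positive difference (median 0.44), yet 0 were called or had an unadjusted p under 0.05. *H2-Aa*, a class II chain, read 6.72 on E14.5 replicate 1, 4.58 and 4.73 on the other E14.5 arrays and 4.57 to 4.65 at E12.5, so that it was high on 1 array, with a difference of 0.74 (adjusted p = 0.838). *Ccr2*, the chemokine receptor of monocytes, was likewise high on that array alone, with 7.28, 5.04 and 4.85 at E14.5 and 5.57, 4.70 and 4.97 at E12.5 (0.64, adjusted p = 0.573). Of 24 TGF-beta signalling genes 3 were higher and 1 lower at an unadjusted p under 0.05, and of 33 interferon-stimulated genes 1 was higher and 0 lower. Of 32 transcription factors of macrophages and microglia *Sall1* alone was called (3.12%, against 1.38% of all genes). *Spi1*, which encodes PU.1, differed by -0.03 (adjusted p = 0.959), *Runx1* by -0.07 (0.904).

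Genes called between E14.5 and E12.5 were then read on arrays of neither group, which shared with the 6 arrays the normalization, the probe filter and the estimate of the spread. Between E16.5 and E10.5, where 59.8% of all genes were called, 87 of the 93 higher genes were called higher (93.5%, against 26.9% of all genes), 1 lower and 5 not, with a median of 1.84. Of the 54 lower genes 46 were called lower (85.2%, against 33.0%), 1 higher and 7 not, with a median of -1.88. The median over all genes was -0.07. *Ier2* was the lower gene called higher there (1.57), and *Bdh1* the higher gene called lower (-0.72).

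Between adult and E10.5 microglia 66.3% of all genes were called. Of the 93, 64 were called higher (68.8%, against 30.6% of all genes) and 4 lower, and of the 54, 49 were called lower (90.7%, against 35.6%) and 1 higher. By stage means, 49 of the higher genes had their highest microglial level in adults, 20 at E14.5, 10 at E18.5, 10 at P0 and 4 at E16.5. Of the lower genes 45 were highest at E10.5, 6 at E12.5, 2 in adults and 1 at E16.5.

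The genes named above took different courses. *Sparc*, *Lag3*, *Ltc4s*, *P2ry12* and *Sall1* were highest in adults, at mean levels of 14.63, 12.62, 13.02, 14.30 and 11.52. *Sall1* differed by 0.18 between E12.5 and E10.5 (adjusted p = 0.599), by 1.24 between E14.5 and E12.5 and by 1.97 between E16.5 and E14.5 (3.76e-05). *P2ry12* differed by 1.51 between E12.5 and E10.5 (adjusted p = 2.59e-06), and by 0.51 between E16.5 and E14.5 (0.0261).

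*Cd163* stayed between 10.66 and 12.04 from E14.5 to P0 and read 5.02 in adults. *Vsig4* had mean levels of 5.39 at E10.5, 7.12 at E12.5, 9.35 at E14.5 and 5.58 at E16.5, so that its highest means were those of the stages compared. It differed by -3.77 between E16.5 and E14.5 (adjusted p = 8.93e-07). *C2* was at 12.25 at E14.5 and at 5.32 in adults, and *Sema4a* at 12.23 and 9.76.

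Of the genes that fell, *Gpr171* was at 9.02 at E10.5, 7.57 at E12.5 and 4.67 at E14.5, and did not exceed 4.90 later. *Lin28b* was at 8.95 at E10.5, 7.42 at E12.5, 6.52 at E14.5, 5.6 at E16.5 and 4.64 in adults. *Mcm5* was at 13.79, 13.25 and 12.67 at E10.5, E12.5 and E14.5, stayed at 12.43 to 12.79 up to P0 and was at 9.35 in adults. *Cd69* did not stay low, with 7.24 at E14.5 and 9.77 at E16.5 (2.53, adjusted p = 0.00655).

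**Figure D5:**
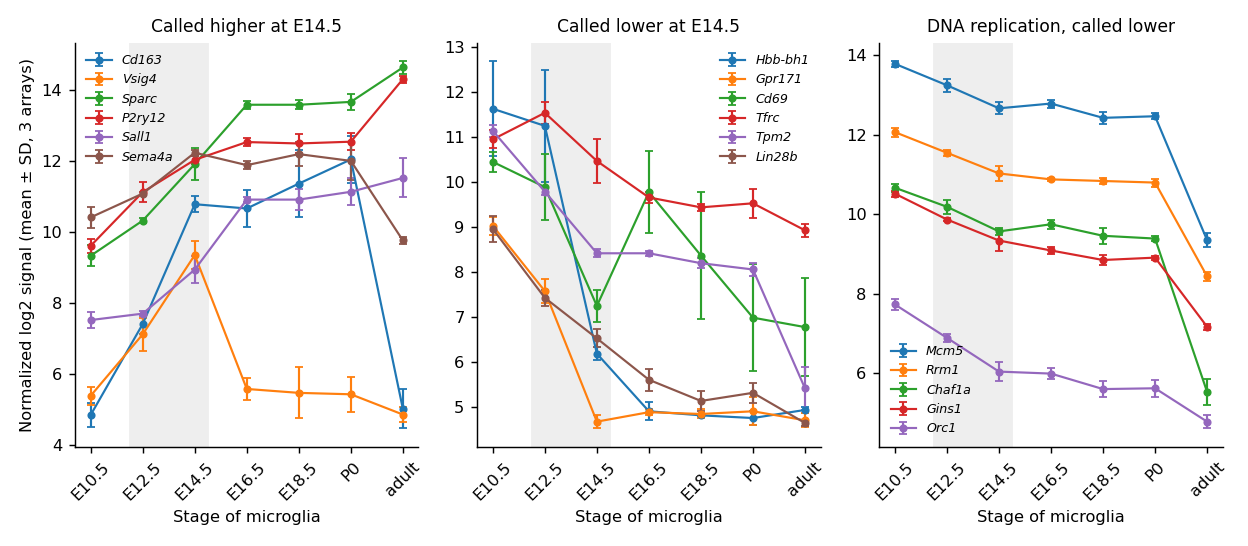
Mean normalized log2 signals (y, with the SD over 3 arrays) are plotted by stage of microglia (x) for genes called higher at E14.5, genes called lower and DNA replication genes, with the stages compared shaded. *Vsig4* peaks at E14.5 at 9.35, *Sparc* reaches 14.63 in adults, and *Mcm5* is at 9.35 in adults.

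Several genes that the study names for its stages were not called between E14.5 and E12.5. The study placed E12.5 and E14.5 in the same embryonic phase. It named these genes for its phases or for changes across phases, not for this step. The transcription factor *Irf8* differed by 0.25 ± 0.17 (adjusted p = 0.531), the growth factor *Igf1* by 0.29 ± 0.22 (0.568), the chemokine receptor *Cxcr4* by 0.21 ± 0.73 (0.936), *Klf9* by 0.18 ± 0.41 (0.904) and *E2f6* by -0.18 ± 0.16 (0.654). A p that misses the threshold does not show equal levels, and *Cxcr4* in particular varied between arrays. Among lists of basic metabolism, 0 of 27 glycolysis and hypoxia genes, 0 of 48 respiratory chain genes and 0 of 50 ribosomal protein genes were called with limma, with medians of -0.25, -0.15 and -0.09 in that order. At an unadjusted p under 0.05 glycolysis held 2 higher and 7 lower genes, the respiratory chain 3 lower and the ribosomal proteins 2 lower.

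Leaving out single arrays showed which calls were firm. Of the 147 called genes 39 stayed called without any one of the 6 arrays, 29 higher and 10 lower. The count of calls was 96, 86 and 64 without E14.5 replicate 1, 2 or 3, and 51, 175 and 90 without E12.5 replicate 1, 2 or 3. Among the 39, beside those described, were the peripheral myelin protein gene *Pmp22* (1.92 ± 0.36, adjusted p = 0.00804), the ion cotransporter *Slc12a2* (0.89 ± 0.13, 0.000892), the ubiquitin ligase adaptor *Klhl3* (1.10 ± 0.16, 0.000756) and the protease gene *Adam33*, which was at least 1.56-fold higher (6.68e-05). *Pmp22*, *Klhl3* and *Slc12a2* were picked after their values were seen. *Pmp22* had 11.36, 11.82 and 11.62 at E14.5 and 9.63, 9.57 and 9.84 at E12.5, without overlap. Of the called genes 56 had over 1 kept probe, and in 7 of them another probe had the opposite sign.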

How the data were processed

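RNA of sorted cells was hybridised to Illumina Mouse WG-6 version 2 beadchips. The authors deposited GenomeStudio probe intensities without background subtraction, a detection p-value for each against negative control beads, and intensities that they quantile-normalized with lumi. Versions of these tools were not given in the sources used. Of 28 columns 3 adult ones were identical copies, which left 25 arrays. Column names gave each array's stage but not the labels' replicate number, so replicates were numbered by name, and nothing says that these numbers pair arrays.

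Signals were background-corrected and quantile-normalized to log2 with neqc of limma 3.58.1 (R 4.3.3, offset 16). Of 45281 probes, 34885 had 1 gene symbol, 18 several and 10378 none, and 34807 were matched to the RefSeq gene table by gene ID. A probe was kept where 3 or more arrays gave a detection p below 0.01 (19789 probes), and the brightest probe stood for each gene (10630 genes). A mean per group was fitted over all 25 arrays with limma (lmFit, eBayes), and E14.5 minus E12.5 was tested with Benjamini-Hochberg adjustment at 0.05. The fit was tested on simulated data. The methods' own post hoc Tukey test was an alternative.

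The comparison and the 42 gene lists were chosen with earlier results of these data known. Named genes were the 12 strongest rises and 12 strongest falls by size among called genes whose groups did not overlap, up to 6 called members of each list, the 5 called genes of smallest adjusted p, the defining genes of the sorted population and the globins, and genes that the study names for its stages. Other list members that did not pass, and called genes outside the lists, were added after their values were seen. For a gene below background on every array of a group, the fold was bounded by the lowest detected signal. The number of arrays limits the precision.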

Additional observations from a re-analysis of the deposited data

How the results depend on the processing

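All 147 genes kept their sign without any one of the 6 arrays. Of 69 named genes, the 51 that were called kept their sign under each alternative that tested them, 19 at most. Sign changes of the 18 uncalled ones were counted only where an alternative called the gene, and there were 0 of these. A total of 6 named genes, *Gpr171*, *Lag3*, *Ltc4s*, *Ppp2r2b*, *Tpm2* and *Vsig4*, were called under all 19 alternatives. Of the 1309 pairs of named gene and alternative, 970 kept their side of the threshold, 334 lost the call and 5 gained it, all for *Plxna2*. The number of calls moved more. Leaving out single arrays gave 51 to 175 calls, 34 to 132 higher and 17 to 46 lower. Without replicate 1 of both stages, an alternative chosen after seeing the data, there were 31 calls, 20 higher and 11 lower. Scaling to the 75th percentile gave 80 (51 higher, 29 lower), and the 6 arrays alone 68 (54 higher, 14 lower), where fewer arrays set the spread. With the 6 arrays alone 44 of the 147 genes stayed called. Without background correction 91 genes were lower, and 87 with the authors' quantile-normalized values. The methods' Tukey test called 388 genes (198 higher, 190 lower). There the variance test over all stages was adjusted over genes, and the Tukey p itself was not. With the Tukey p adjusted over genes, 10 were called (7 higher, 3 lower). Over the authors' values of the 6 samples, 213 genes were called without the replicate block (161 higher, 52 lower). With the replicate block 56 were called (45 higher, 11 lower). The deviations of same-numbered samples correlated at r = 0.38, 0.04 and 0.28, and those of differently numbered samples at -0.37 to 0.32. Whether same-numbered samples share more than a number was not tested. Other causes were not tested either. Probes near background limit the folds of genes not detected in one group to bounds.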
